A study of Homo sapiens with 2 samples.

Results

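The 10 genes described here are ID1, ID2, ID3, ID4, SMAD6, SMAD7, SMAD9, MSX1, MSX2 and ATOH8, which were taken by their NCBI gene numbers from 18518 genes listed in the data. All 10 are known to respond to bone morphogenetic protein (BMP) signals in one cell type or another. The list was drawn up as ID, inhibitory SMAD and MSX genes. SMAD6 and SMAD7 are the inhibitory SMADs, whereas SMAD9 encodes a receptor-activated SMAD and ATOH8 a basic helix-loop-helix (bHLH) factor. All 10 were listed in both libraries, and all reached 10 counts in at least 1 of them.

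The data hold 2 RNA libraries of H1, a long-established line of human embryonic stem cells. One library was from cells labelled MEIS1-/- (MEIS1 deleted) and the other from wild-type H1 cells. Both cultures received 40 ng/ml activin A with 50 ng/ml BMP4 for 2 days, then 40 ng/ml VEGF with 50 ng/ml bFGF, and both were harvested at day 3. No BMP4 is listed for the second step, in which day 3 falls. The labels do not say whether the deleted cells were 1 clone, which part of MEIS1 was removed or whether cultures were separate. MEIS1 itself had 68 counts in the library labelled MEIS1 deleted and 89 in wild type, a log2 ratio of -0.40 (95% counting interval -0.88 to 0.07), so its level does not check the labels.

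BMP ligands bind paired receptor kinases, which phosphorylate SMAD1, SMAD5 and SMAD9, and these enter the nucleus with SMAD4 to switch on target genes. The ID genes are among the most direct of these targets, and their proteins bind E proteins and keep them from DNA. SMAD6 and SMAD7 are induced by the same signals, SMAD7 also by activin and TGF-beta, and damp the pathway in return. MSX1 and MSX2 encode homeodomain repressors that BMP induces in mesoderm, amnion and neural crest. In embryonic stem cells BMP4 with activin drives formation of mesoderm, the source of endothelium and blood.

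ID1, ID3, ID4, MSX1 and MSX2 were lower in the library labelled MEIS1 deleted, SMAD9 was higher, and ID2, SMAD6, SMAD7 and ATOH8 had counting intervals that included no difference. Of these, ID4, 1.92-fold lower (1.66 to 2.22), and MSX1, 1.54-fold lower (1.36 to 1.74), were at least 1.5-fold lower with an interval that excluded 1, the rule for calling a gene. This made 2 of 10 genes called lower, where 6.21% of all 14381 genes compared were called lower, and 0 of 10 called higher, where 5.75% were. By the interval alone 5 of 10 were lower (14.7% of all genes) and 1 of 10 was higher (15.4% of all genes). At 2-fold 0 of 10 were lower (2.95% of all genes) and 0 of 10 higher (2.90%). The median log2 ratio of the 10 genes was -0.43, against 0.0032 over all genes compared. With 1 library per genotype there was no test and no replicate spread. Intervals are exact, at 95%, and cover counting error only, so each difference is one between these 2 libraries. In bulk RNA, fewer cells of a type and less RNA per cell cannot be told apart.

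**Figure D1:**
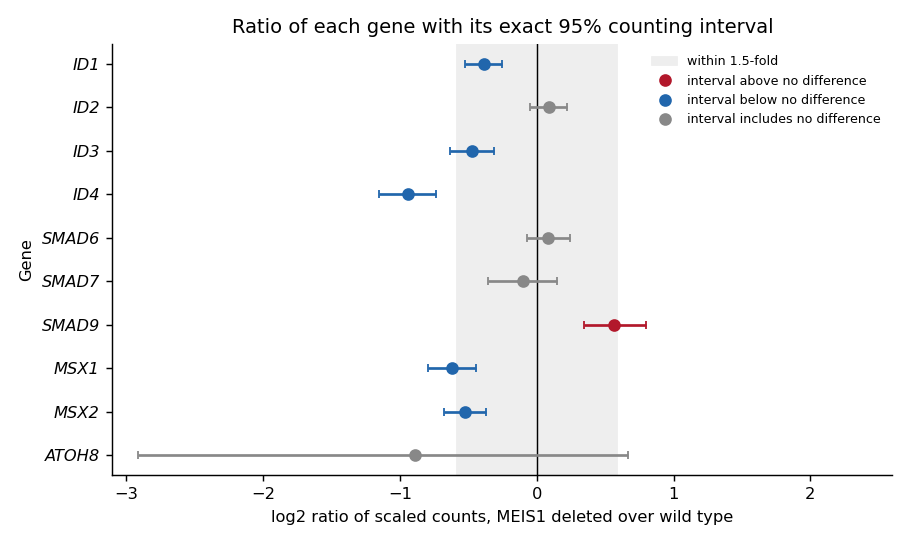
Log2 ratio of scaled counts, MEIS1 deleted over wild type, for each gene (point) with its exact 95% counting interval (bar). The grey band holds ratios within 1.5-fold, and blue, red and grey points have intervals below, above and across no difference. ID4 and MSX1 lie outside the band on the lower side, and the bar of ATOH8, from -2.91 to 0.67, spans the widest range.

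Counting intervals narrow with depth, so the 9 genes with at least 200 counts in 1 library (all but ATOH8) were also set among the 6102 genes of that depth. There 2 of 9 were called lower, where 3.39% of genes were, and 0 of 9 higher, where 2.93% were. By the interval alone 5 of 9 were lower (19.7% of genes) and 1 of 9 was higher (21.9%). ID4 had a lower ratio than 98.9% of these genes, MSX1 than 97.0%, MSX2 than 95.7%, ID3 than 94.7% and ID1 than 92.6%. SMAD9 lay at the other end, above 96.9% of them. ID2 and SMAD6 lay in the middle of the range, above 63.9% and 63.4%, and SMAD7 above 30.6%.

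**Figure D2:**
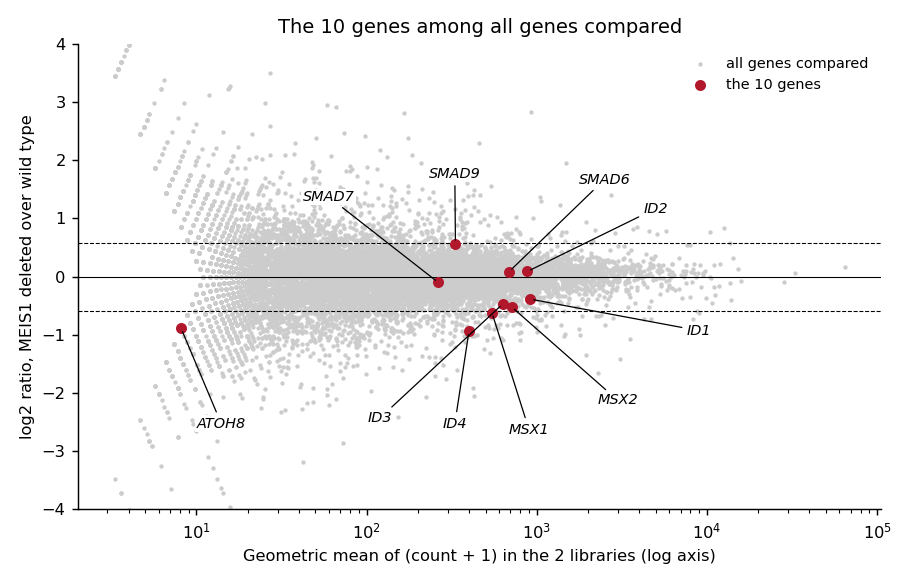
Log2 ratio of scaled counts, MEIS1 deleted over wild type, against the geometric mean of count + 1 in the 2 libraries on a log axis, for all genes compared (grey) and the 10 genes (red, named). Dashed lines mark 1.5-fold, and 29 of 14381 genes fall outside the vertical axis. ID4 and MSX1 lie below the lower dashed line among genes of like depth, and ATOH8, also below it, lies in the wide scatter of genes with few counts.

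ID4 and MSX1, the genes past the 1.5-fold rule, are shown with the 250 bases before their annotated starts, taken from RefSeq on GRCh38.p14, both on the plus strand. The ID4 window is chr6:19837120-19837369 and the MSX1 window chr4:4859415-4859664, and neither overlaps an annotated exon of GENCODE 29. The windows were searched on both strands for GGCGCC, a GC-rich SMAD motif, for GTCTG or its complement CAGAC, the SMAD box, for CANNTG, the E-box bound by E proteins, and for TGACAG, a motif of MEIS-type factors. Capitals mark matches to the SMAD and E-box motifs, written 5′ to 3′.
ID4: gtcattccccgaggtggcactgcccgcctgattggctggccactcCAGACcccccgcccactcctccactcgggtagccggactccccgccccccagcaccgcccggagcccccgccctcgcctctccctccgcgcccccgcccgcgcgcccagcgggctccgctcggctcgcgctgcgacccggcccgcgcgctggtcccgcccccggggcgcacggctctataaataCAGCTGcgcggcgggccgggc
MSX1: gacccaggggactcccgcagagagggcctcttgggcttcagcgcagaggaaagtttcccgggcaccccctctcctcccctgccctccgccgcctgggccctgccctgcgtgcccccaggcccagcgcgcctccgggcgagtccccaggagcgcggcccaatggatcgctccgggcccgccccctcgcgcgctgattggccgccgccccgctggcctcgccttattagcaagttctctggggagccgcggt
The ID4 window held 1 SMAD box, starting 205 bases before the start, and 1 E-box, 21 bases before it, which did not overlap. No motif of the 4 was found in the MSX1 window. Of 35116 windows of this length in the RefSeq table, 38.0% held GTCTG or CAGAC, 61.8% CANNTG, 16.4% GGCGCC and 13.0% TGACAG or its complement. G and C made up 78.8% of the ID4 window and 74.0% of the MSX1 window, where the median over all windows was 58%. Matches describe these letters only.

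The ID genes encode small helix-loop-helix proteins without a DNA-binding region. ID1 (gene 3397), a classical BMP target that is also active in endothelial precursors, had 804 counts in the library labelled MEIS1 deleted and 1042 in wild type. Per length these were 152 FPKM (fragments per kilobase of transcript, scaled to library depth) and 201 FPKM. The count ratio was 1.31-fold lower (1.19 to 1.44), a difference under the 1.5-fold rule. ID1 was nonetheless the most abundant of the 10 genes in both libraries, ranked 355th by FPKM in the library labelled deleted and 236th in wild type.

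ID3 (gene 3399), often expressed together with ID1, had 537 counts (82.3 FPKM) in the library labelled deleted, against 738 (115 FPKM) in wild type. It was 1.39-fold lower (1.24 to 1.55). ID4 (gene 3400), best known from neural progenitors, had 289 counts (13.97 FPKM) in the library labelled deleted and 550 (27.1 FPKM) in wild type. It was the least abundant ID gene on the FPKM scale in both libraries and had the ratio furthest from 1 among the 9 genes with at least 200 counts.

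ID2 (gene 3398), which is expressed across many progenitors and restrains E proteins in blood lineages, did not share that direction. It had 913 counts (125 FPKM) in the library labelled deleted and 850 (118 FPKM) in wild type, a log2 ratio of 0.09 (-0.05 to 0.22). Changes of over 1.17-fold higher or 1.03-fold lower were outside its counting interval.

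Ratios of one gene to another within a library do not depend on how the libraries were scaled, so they were used to compare the ID genes with each other. Such a ratio of ratios below 1 means that the gene named before the other had the lower library ratio. ID1 against ID2 gave 0.718 (0.629 to 0.821), ID3 against ID2 0.678 (0.584 to 0.785) and ID4 against ID2 0.489 (0.411 to 0.582). ID2 therefore stood apart from its 3 relatives beyond counting error. ID4 also differed from ID1, at 0.681 (0.572 to 0.809), and from ID3, at 0.722 (0.600 to 0.868). ID1 and ID3 were not separated, at 1.06 (0.916 to 1.23).

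The make-up of the ID family also differed between the libraries. Summed over the 4 genes, the level was 372 FPKM in the library labelled deleted and 461 FPKM in wild type, and the summed counts were 2543 and 3180, 1.26-fold lower (1.20 to 1.33). ID2 held 33.4% of that FPKM sum in the library labelled deleted and 25.6% in wild type. ID1 held 40.7% and 43.6%, ID3 22.1% and 24.9%, and ID4 3.75% and 5.87%, the library labelled deleted given before wild type. ID2 and ID3 had overlapping FPKM intervals in wild type (110 to 126 for ID2, 107 to 124 for ID3), whereas in the library labelled deleted those of ID2 (117 to 133) and ID3 (75.4 to 89.5) did not overlap.

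The inhibitory SMAD genes differed by less than counting error. SMAD6 (gene 4091), whose product blocks BMP receptors and SMAD1 in particular, had 712 counts (72.8 FPKM) in the library labelled deleted and 664 (67.5 FPKM) in wild type, a log2 ratio of 0.09 (-0.07 to 0.24). SMAD7 (gene 4092), which inhibits the activin and TGF-beta arms as well, had 255 counts (18.2 FPKM) and 271 (19.6 FPKM) in the same order, a log2 ratio of -0.10 (-0.36 to 0.15). Their ratio of ratios was 1.14 (0.927 to 1.40), so they were not separated from each other. The sum of both gave 967 counts in the library labelled deleted and 935 in wild type, a ratio of 1.02 (0.935 to 1.12).

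SMAD6 and ID1, which respond to the same SMADs, were compared in the same way. ID1 against SMAD6 gave 0.720 (0.624 to 0.830), so ID1 had the lower library ratio beyond counting error. ID1 against SMAD7 gave 0.820 (0.672 to 1.001), an interval that just reached 1. The mean transcript length listed for SMAD6 was 1858 bases in the library labelled deleted and 1902 in wild type, and for SMAD7 2640 and 2663. On the log2(FPKM + 1) scale the ratios were 0.11 for SMAD6 and -0.096 for SMAD7.

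SMAD9 (gene 4093), itself a target of the pathway, was the only one of the 10 genes whose interval lay above 1. In wild type SMAD9 had the lowest FPKM of the 3 BMP-activated SMADs, with an interval that overlapped that of SMAD1. It had 406 counts (13.6 FPKM) in the library labelled deleted and 271 (9.25 FPKM) in wild type, 1.48-fold higher (1.27 to 1.74), just under the 1.5-fold rule. MSX1, at 1.54-fold lower, lay just past that rule. The estimated count of SMAD9 in the library labelled deleted was 406.06, not whole, so some of its reads were shared with other sequences. The share of such reads is not given.

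Its partners did not share the difference. SMAD1 had 176 counts in the library labelled deleted and 177 in wild type, and SMAD5 had 757 and 814, ratios of 0.984 (0.794 to 1.22) and 0.920 (0.833 to 1.02). SMAD9 against SMAD1 gave a ratio of ratios of 1.51 (1.15 to 1.97), and SMAD9 against SMAD5 gave 1.61 (1.34 to 1.94). Of the FPKM summed over SMAD1, SMAD5 and SMAD9, SMAD9 held 30.0% in the library labelled deleted and 21.5% in wild type. SMAD9 exceeded SMAD1 in FPKM in the library labelled deleted (13.6 and 11.5) but not in wild type (9.25 and 11.7).

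MSX1 and MSX2 were lower by like amounts. MSX1 (gene 4487), a repressor first studied in limb and craniofacial mesenchyme, had 441 counts (43.15 FPKM) in the library labelled deleted and 671 (66.8 FPKM) in wild type. MSX2 (gene 4488), a close relative that BMP4 induces in early mesoderm and amnion, had 597 counts (50.8 FPKM) and 851 (73.8 FPKM) in the same order, 1.44-fold lower (1.296 to 1.602). The MSX2 estimates were not whole, at 596.96 and 851.35, so some of its reads were shared with other sequences.

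MSX1 against MSX2 gave a ratio of ratios of 0.937 (0.796 to 1.102), which did not separate them. MSX2 held 54.1% of the FPKM of the pair in the library labelled deleted and 52.5% in wild type. Their summed counts were 1038 and 1522, 1.48-fold lower (1.37 to 1.605). Against ID1, MSX1 gave 0.852 (0.730 to 0.994), an interval that ended just below 1. MSX2 against ID1 gave 0.909 (0.789 to 1.05), an interval that included 1.

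ATOH8 (gene 84913), a bHLH gene induced by BMP in endothelium and liver, was close to undetected. It had 5 counts (0.16 FPKM) in the library labelled deleted and 10 (0.32 FPKM) in wild type. The interval of its log2 ratio, -2.91 to 0.67, allowed changes in either direction, so no difference was detectable at this depth.

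**Figure D3:**
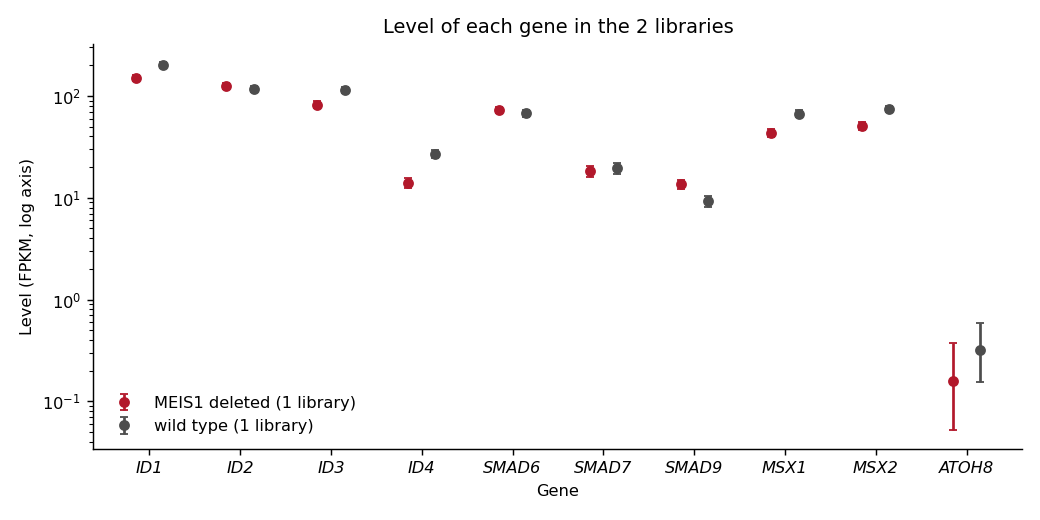
Level of each gene in FPKM on a log axis in the MEIS1 deleted library (red, left) and the wild-type library (grey, right), 1 library each, with exact 95% Poisson counting intervals. ID1 is highest in both, at 152 and 201 FPKM, and ATOH8 lowest, at 0.16 and 0.32 FPKM.

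The order of levels, per length, was alike at both ends. In the library labelled deleted it ran ID1, ID2, ID3, SMAD6, MSX2, MSX1, SMAD7, ID4, SMAD9 and ATOH8. Neighbours whose Poisson intervals overlapped were ID3 with SMAD6, MSX2 with MSX1, and ID4 with SMAD9. In wild type it ran ID1, ID2, ID3, MSX2, SMAD6, MSX1, ID4, SMAD7, SMAD9 and ATOH8, with overlaps of ID2 with ID3, MSX2 with SMAD6, and SMAD6 with MSX1. SMAD6 thus ranked above both MSX genes in the library labelled deleted (72.8 FPKM against 50.8 for MSX2), and ID4 ranked above SMAD7 in wild type (27.1 FPKM against 19.6) but below it in the other library (13.97 against 18.2).

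Genes upstream of the 10 differed in both directions. Beside the lists below, 5.75% of all genes compared were called higher and 6.21% lower. Single calls in lists this small do not set a list apart from all genes. Of 12 BMP ligand genes, 9 were compared, 2 were called higher and 2 lower, with a median log2 ratio of 0.03. BMP2 had 436 counts in the library labelled deleted and 797 in wild type, 1.85-fold lower (1.64 to 2.08), and BMP5 had 39 and 59, 1.52-fold lower (1.003 to 2.35). The call of BMP5 was marginal, with a ratio just past 1.5-fold and an interval that barely excluded 1. BMP6, which is made by endothelium among others, had 648 and 335 counts, 1.91-fold higher (1.68 to 2.19). BMP10, a ligand of developing heart that acts through ACVRL1, had 154 and 40 counts, 3.74-fold higher (2.68 to 5.54).

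Of 11 receptor and co-receptor genes, 10 were compared, 1 was called higher and 2 lower, with a median of -0.12. BMPR1A, the main type I BMP receptor of the early embryo, had 557 counts in the library labelled deleted and 829 in wild type, 1.503-fold lower (1.35 to 1.68). Its ratio lay just past the 1.5-fold rule. ENG, the endothelial co-receptor endoglin, had 108 and 44 counts, 2.40-fold higher (1.696 to 3.53). ACVRL1, its partner receptor in endothelium, was 1.36-fold higher (1.09 to 1.71), and the activin and BMP receptor gene ACVR2B was 1.20-fold lower (1.098 to 1.31).

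Among 9 SMAD transducers and co-repressors, 0 were called higher and 1 lower, with a median of -0.12. The gene called was TGIF1, a co-repressor of activin-type SMADs, with 358 counts in the library labelled deleted and 535 in wild type, 1.51-fold lower (1.32 to 1.73). Its ratio also lay just past the 1.5-fold rule. SMAD3, an activin-type SMAD, was 1.29-fold higher (1.09 to 1.52), while the co-repressor genes TGIF2 and SKIL were 1.25-fold lower (1.06 to 1.47) and 1.20-fold lower (1.095 to 1.32).

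Of 9 genes of SMAD and receptor turnover, 1 was called higher and 1 lower, with a median of -0.015. SMURF2, a ubiquitin ligase that works with SMAD7, had 838 counts in the library labelled deleted and 515 in wild type, 1.61-fold higher (1.44 to 1.80). WWP1, a related ligase, had 515 and 819 counts, 1.61-fold lower (1.44 to 1.80). WWP2 was 1.42-fold lower (1.18 to 1.71) and the deubiquitinase gene USP15 1.43-fold higher (1.19 to 1.72).

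Of 11 BMP antagonist genes, 0 were called higher and 1 lower, with a median of -0.17. The gene called was CER1, a secreted inhibitor of BMP, NODAL and WNT made by streak-derived cells, with 31 counts in the library labelled deleted and 136 in wild type, 4.33-fold lower (2.98 to 6.78). BMPER, a BMP-binding protein of endothelial precursors, was 1.26-fold higher (1.16 to 1.38) and GREM1, a secreted antagonist, 1.23-fold higher (1.04 to 1.47). SOSTDC1 had 42 and 56 counts, an interval that included no difference.

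Of 12 other genes known to respond to BMP, all compared, 1 was called higher and 0 lower, with a median of 0.15. By the interval alone 5 were higher (15.4% of all genes) and 2 lower (14.7% of all genes). GATA2, needed for blood progenitors, had 688 counts in the library labelled deleted and 256 in wild type, 2.65-fold higher (2.30 to 3.08). The NOTCH and BMP target gene HEY1 was 1.44-fold higher (1.09 to 1.93) and CDX2, a factor of posterior and extraembryonic mesoderm, 1.39-fold higher (1.097 to 1.78). TFAP2A, a gene of amnion and surface ectoderm, had 272 and 387 counts, 1.44-fold lower (1.23 to 1.68).

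Of 12 genes responsive to activin, NODAL or TGF-beta, 10 were compared, 1 was called higher and 4 lower, with a median of -0.39, and this list shares CER1 and SKIL with those above. EOMES, a regulator of primitive streak and endoderm formation, had 211 counts in the library labelled deleted and 867 in wild type, 4.14-fold lower (3.57 to 4.85). PMEPA1, a feedback inhibitor of activin-type SMADs, was 1.69-fold lower (1.34 to 2.16). TGFBI, a matrix protein gene, had 636 and 240 counts, 2.62-fold higher (2.26 to 3.06).

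**Figure D4:**
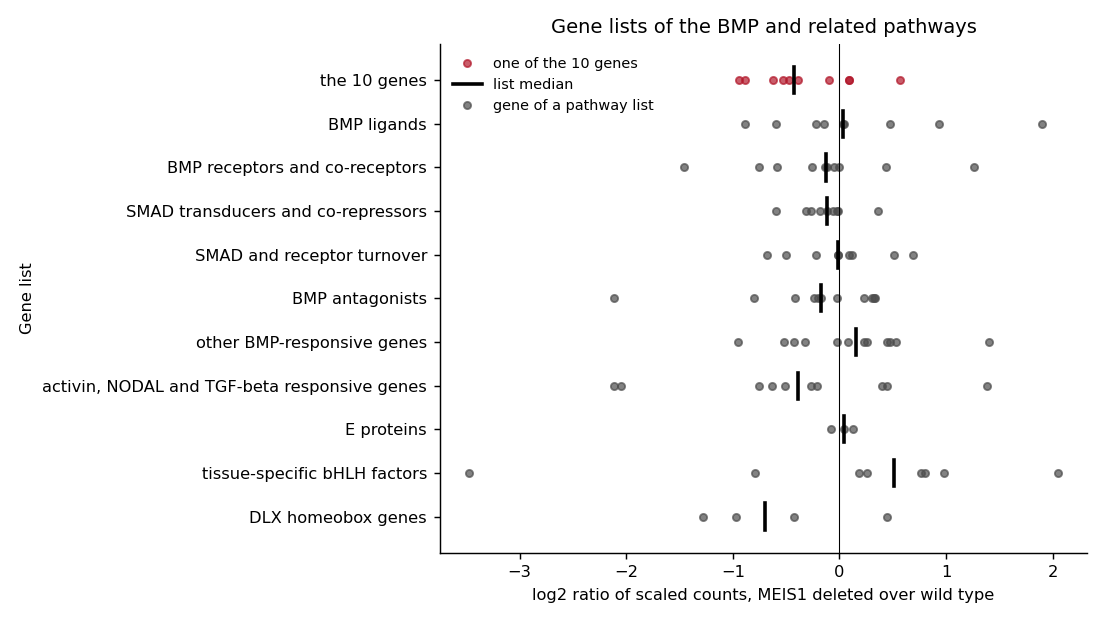
Log2 ratio of scaled counts, MEIS1 deleted over wild type, for the 10 genes (red) and for each compared gene of 10 pathway lists (grey), with list medians as black bars. The medians run from -0.70 for DLX genes to 0.51 for tissue-specific bHLH factors, and the 10 genes have a median of -0.43.

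Transcripts of the proteins that ID factors bind were also examined. The E protein genes TCF3, TCF4 and TCF12 had 1085, 947 and 911 counts in the library labelled deleted and 1138, 908 and 825 in wild type, and 0 of 3 had an interval that excluded 1. Their summed level was 105 FPKM in the library labelled deleted and 104 FPKM in wild type, beside the ID sums of 372 and 461 FPKM. These are RNA levels, and protein amounts were not measured. Of 18 tissue-specific bHLH factors, which pair with E proteins, 8 were compared, 2 were called higher and 1 lower, with a median of 0.51. HAND2, a heart and limb factor, had 267 and 63 counts, 4.14-fold higher (3.18 to 5.61), and TAL1, a factor of blood and endothelium, 347 and 196 counts, 1.75-fold higher (1.47 to 2.10). HAND1, a factor of extraembryonic and cardiac mesoderm, was 1.20-fold higher (1.13 to 1.26). The only compared gene of this list at 0 in a library was the one called lower, which had the lowest ratio. Placing it at the limit of 3 counts left the median at 0.51 by design.

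DLX genes, homeobox relatives that often act in the same tissues as MSX genes, were sparsely expressed. Of 6, 4 were compared, 0 were called higher and 2 lower, with a median of -0.70. DLX2 had 29 counts in the library labelled deleted and 57 in wild type, 1.95-fold lower (1.25 to 3.22).

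Markers of other cell types also differed between the libraries, and their part in these differences was not tested. Over all genes compared, 5.75% were called higher and 6.21% lower, and by the interval alone 15.4% were higher and 14.7% lower. Of 6 primitive streak markers, 4 were compared and all 4 were called lower, with summed levels of 33.2 FPKM in the library labelled deleted and 125 FPKM in wild type. For pluripotent cells 2 of 4 compared (of 5) were called lower (151 and 253 FPKM). Endothelial markers were called higher in 4 of 6 compared (of 7), with sums of 235 and 176 FPKM, and cardiac and lateral plate markers in 3 of 6 (of 7), with 386 and 312 FPKM. Single genes made up most of these sums, KDR with 160 and 141 FPKM and HAND1 with 301 and 254 FPKM. The median log2 ratios of the 2 lists were 1.35 and 0.64. Amnion markers, a tissue rich in MSX2 and ID transcripts, had 2 of 6 called higher and 0 lower, with 71.0 and 79.4 FPKM. By the interval alone 2 amnion markers, GABRP and VTCN1, were higher and 3, ISL1, TFAP2A and GATA3, were lower, with log2 ratios of -0.40, -0.52 and -0.32. Endoderm had 1 of 5 compared (of 6) called lower (44.3 and 59.2 FPKM), and neural and neural crest 1 of 4 (of 6) (24.8 and 25.4 FPKM). SOX9 made up most of the neural sums, with 24.1 and 23.5 FPKM, and the gene called lower, SOX10, had 2 and 14 counts. Blood cell markers other than CD34 had few counts, with 1 of 2 compared (of 6) called higher, CD34 itself (38.0 and 22.1 FPKM summed over the list). HBZ, SOX1 and FOXD3 were listed in neither library. HBE1, TBX5 and TTR had 2, 2 and 5 counts in the library labelled deleted and 0 in wild type.

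Depth was alike in both libraries. Estimated counts summed to 5296440 in the library labelled deleted and 5202875 in wild type, over 17696 and 17562 listed genes. The reference table placed no other listed gene across any of the 10 genes, as the only overlapping annotations, 1 at ID3 and 1 at ATOH8, had no entry in either table.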

How the data were processed

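Per the labels' protocols, each library used an Illumina TruSeq kit and 2 µg of total RNA. The submitters' processing notes name BWA, Bowtie, RSEM and hg19 without versions; the counting's use of strand is not given in the sources used here. The authors deposited expected counts (estimated counts, unscaled) and FPKM values (per length and depth) for 1 library per genotype, per the file headers, beside transcript lengths. Genes absent from a table were taken as 0. Of 18518 gene numbers, 18413 matched a symbol in a RefSeq table (GRCh38.p14), which also gave promoter sequences for 10 of 10 members.

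Expected counts were rounded and scaled by TMM effective library sizes (edgeR 4.0.16 in R 4.3.3), whose ratio was 1.01, MEIS1 deleted over wild type. Log2 ratios used a pseudocount of 1, and folds are those ratios as linear values. Intervals are exact Clopper-Pearson (95%), conditional on the summed count and without pseudocount; ratios of ratios carry exact conditional odds ratio intervals (scipy 1.17.1) and were added after seeing the data. FPKM intervals scale exact Poisson limits of the count. Genes with at least 10 counts in 1 library were compared, and called when at least 1.5-fold apart with an interval that excluded 1. Intervals treat each count as independent and cover counting error only. PCR copies are not independent molecules, so the intervals may be too narrow even for counting error. With 1 library per group no model was fitted and no p-value computed. The ratio computation was tested on simulated Poisson counts, the model that the intervals assume. Those counts held no PCR copies and no replicate spread, so they check the computation only.

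The members and gene lists were chosen with earlier results of these data known. Some genes stand in more than 1 list, among them HAND1, TFAP2A, GATA3 and EOMES, so pathway and marker lists are not separate observations. Text names all 10 genes and, from each pathway list, up to 4 genes with the largest absolute ratios among those with at least 50 counts in 1 library; SMAD1, SMAD5 and the single markers of cell types were named outside this rule, after their values were seen. Alternatives were other scalings (among them DESeq2 1.42.0 size factors), pseudocounts, minimum counts, rounding, fold limits and FPKM. One marker of the lists is not reported here.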

Additional observations from a re-analysis of the deposited data

How the results depend on the processing

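All 98 alternative values of single genes stayed within their main counting interval, and in each the sign was kept. A minimum count cannot change the ratio of a gene, so the values under other minimum counts equalled the main ones by design. Rounding down changed the ratio of MSX2 alone. Likewise, fold limits cannot change the median of the 10 genes. The median of the 10 genes ran from -0.44 to -0.30 over 12 alternatives, and ATOH8 from -0.95 to -0.19, where the FPKM pseudocount weighs on its low level. Under scaling by total counts, by median of ratios (DESeq2) or by upper quartile, 2 genes were called lower and 0 higher. The same held under other pseudocounts, rounding down, FPKM and other minimum counts. FPKM calls used the 1.5-fold limit alone, without an interval. Other fold limits changed the number of genes called. At 2-fold 0 of the 10 were called lower and 0 higher, with 424 genes lower and 417 higher over all genes compared. By the interval alone 5 were lower and 1 higher, with 2117 lower and 2212 higher over all genes. Fewer genes were compared at higher minimum counts, with 587 lower and 506 higher at 50 counts, and 207 lower and 179 higher at 200 counts, an alternative chosen after seeing the data. MSX1 and SMAD9 lie close to the 1.5-fold limit, so their side of it carries little weight at this depth. The same holds for BMPR1A, TGIF1 and BMP5 of the pathway lists. Their log2(FPKM + 1) ratios, -0.583, -0.579 and -0.50, were under 1.5-fold. Alternatives were run for the 10 genes and for the totals over all genes, not for the other lists. No paired analysis was possible because each genotype had 1 library, and no library could be left out.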
